A study of Mus musculus with 15 samples.

Results

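Untreated 4T1 cells were the reference condition of an RNA-seq series in which this cell line was also exposed to blackberry extract (BLA), blueberry extract (BLU) and gold nanoparticles made with either extract (BLA-A and BLU-A). Of the 15 columns in the deposited count table, the 3 labelled untreated were taken, and they were averaged as 1 library because they differed by less than sampling noise, although the labels give each column a date of its own. No change was tested: the levels of genes in the untreated library were described, by lineage, function and family. Levels in treated libraries are given beside a few of them. 4T1 is an established mouse mammary carcinoma line, and the labels give its tissue as mammary gland and its genotype as WT for all 5 conditions. The untreated cells received neither extract nor nanoparticles, and all cells were grown in RPMI1640 with serum. The line is a model of 1 tumour of 1 mouse strain, so the levels describe these cultured cells and not mammary tumours in general.

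4T1 cells are widely used because, in the mouse, they form primary mammary tumours that spread to lung, liver, bone and brain without further manipulation. Tumour cells of epithelial origin can keep keratins and junction proteins while also making vimentin and fibronectin, which are typical of mesenchyme. They also release colony-stimulating factors and chemokines that act on bone marrow and on leukocytes.

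The 3 untreated columns held 25779434, 25777042 and 25777508 counts. Over the 19504 genes that averaged 10 or more counts, chi-square per degree of freedom between the columns was 0.250, and it lay between 0.0951 and 0.475 in the 4 treated conditions. Such values, below 1, mean that the columns of a condition were closer to each other than independent draws would be. No culture-to-culture error could therefore be computed, no test was made, and the 95% exact Poisson intervals given with levels cover counting error only. The treated libraries, also 1 per condition, were used to say whether an order of genes held there and to give a few levels, not as replicates. Levels are given as CPM, the counts of a gene scaled to a common total, for a gene by itself. Genes were compared with one another after division by exon length, as TPM, the same scaling of counts per exon kb. Rankings, limits and thresholds given in CPM or counts are the exception. Division by exon length was possible for the 34302 of 40402 genes whose symbol matched 1 GENCODE gene. A value of 3 counts, or 0.116 CPM, was taken as the floor.

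At 1 CPM or more, 15634 of 40402 genes were found in the untreated library, which is 38.7% of all genes in the table. The share was 61.0% among 20910 protein-coding genes and 21.2% among 8710 long noncoding RNA (lncRNA) genes. These shares are the background for every list below. Protein-coding genes took 86.8% of counts. The 10 most abundant genes took 10.8% of counts, and 59381 CPM of that was the predicted gene Gm26917, which no GENCODE gene matched. Next came Eef1a1, a translation elongation factor, at 9592 CPM, the mitochondrial COX1 at 6064 CPM, Ahnak, a large scaffold protein, at 5779 CPM, and Actb at 5287 CPM. AY036118 (4630 CPM), Fn1 (4592 CPM), Pabpc1 (4464 CPM), Vim (4053 CPM) and ND5 (3710 CPM) completed the first 10. The next 10 held Scd2, a fatty acid desaturase, the chaperones Hspa5 and Hsp90ab1, the proliferation marker Mki67 (2216 CPM), the nucleolar Ncl and the secreted phosphoprotein Spp1 (2016 CPM), together with Rabepk, Gm40892, CYTB and Gm38733.

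The following properties of the counts bear on single genes. Genes that overlap on opposite strands often had nearly equal counts, as with Hspa5 (66128 counts) and Rabepk (62155 counts), so reads of a gene and its antisense partner cannot be told apart here. Among genes at 1 CPM or more, 17.4% of protein-coding and 65.6% of lncRNA genes overlapped a gene with at least as many counts on the other strand, and such members are marked below by naming the partner. In addition, a value of 0 is not always absence. Of the 175 listed genes at 0, 19 had over 50% of their span under another gene on the same strand, among them Aldoa, Sox4, Norad and Clcf1. Such cover did not always go with a low count: Rpph1, wholly under Ccnb1ip1 on the same strand, had 25214 counts. Of the 13 mitochondrial protein genes, 6 (COX2, COX3, ATP6, ATP8, ND3 and ND4L) were listed at 0 while COX1 was among the highest genes. Gapdh, which every cell uses and which has many pseudogene copies, stood at only 13.4 CPM. Such genes are described as listed at 0 or at a low count, and nothing is drawn from them.

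The 52 lists held 1182 entries, of which 5 symbols were not in the count table. In 22 lists the share of members at 1 CPM or more was above the 61.0% of protein-coding genes. The luminal epithelial markers, the Stat, Irf, Smad and NF-kB factors and the tumour suppressors and oncogenes were above 90%, whereas lymphocyte, adipocyte and hepatocyte markers had 0 members at that level. The highest member of a list per exon length was also the highest in all 4 treated libraries in 34 of 52 lists.

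**Figure D1:**
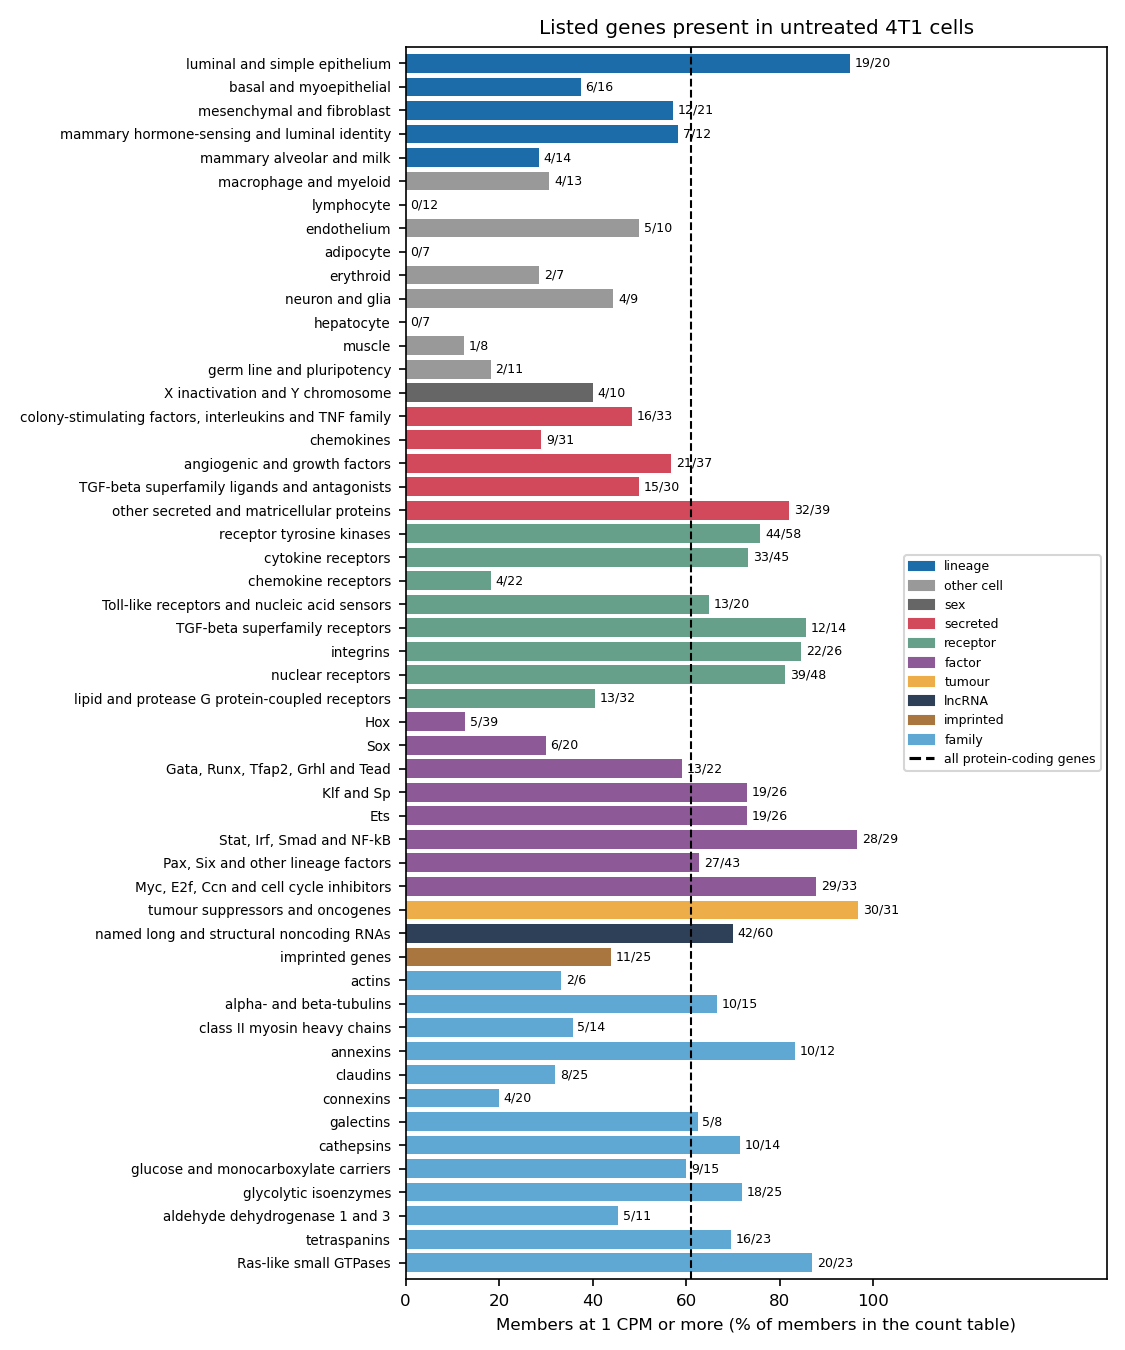
Bars give, for each of the 52 gene lists, the percentage of its members in the count table that were at 1 CPM or more in the untreated library, with the count printed at the end, and the dashed line marks the 61.0% of all protein-coding genes. Luminal markers (19 of 20) reach far past the line, and Hox genes (5 of 39) and chemokine receptors (4 of 22) stay well short of it.

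Epithelial markers of the luminal and simple type were found almost without exception. Of 20 members, 19 were at 1 CPM or more, with a median of 59.4 CPM beside 4.3 CPM over all protein-coding genes. Krt18, the type I keratin of simple epithelium, had 15312, 15181 and 15236 counts in the 3 columns, a length-scaled level of 2477 TPM (2438 to 2517). Its partner Krt8 had 7352, 7292 and 7371 counts, or 875 TPM (855 to 895), so that Krt18 was 2.83 times as high per exon length. The order of these keratins held in all 5 libraries, with Krt18 the leading member in each. Cd24a, a surface glycoprotein of luminal cells, followed at 373 TPM and the tight junction protein Cldn3 at 294 TPM. E-cadherin (Cdh1, 166 TPM, 160 to 172) and Epcam (166 TPM, 158 to 173) were level with one another within counting error. The splicing regulators Esrp1 (28.0 TPM) and Esrp2 (12.8 TPM, overlapped on the other strand by Nfatc3) and the epithelial factor Grhl2 (40.0 TPM) were also found. Krt19 was lower, at 38.5 TPM, and Rab25 was listed at 0 in all 3 columns.

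Basal and myoepithelial markers were found mainly through the integrin pair that anchors epithelium to laminin. Of 16 members, 6 were at 1 CPM or more, and Itga6 (287 TPM, 283 to 292) and Itgb4 (103 TPM, 99.4 to 107) stood far above the rest, Itga6 alone making up 68.5% of the summed level of the list. The keratins of the basal layer were near or at 0: Krt14 had 11, 12 and 8 counts (0.401 CPM), Krt17 stood at 0.207 CPM, and Krt5 and Krt15 were listed at 0. Tagln, a smooth muscle protein, came after them at 11.0 TPM, with 4.66 times as many counts in Pcsk7 on the other strand. Trp63, the basal lineage factor, was low at 2.40 CPM. The contractile genes Acta2 (0.491 CPM, overlapped by Stambpl1) and Cnn1 (0.866 CPM, overlapped by Elof1) were also under 1 CPM.

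Mesenchymal markers divided between very high and nearly silent genes. Vim, the intermediate filament of mesenchyme, had 104630, 104267 and 104564 counts, or 5135 TPM (5103 to 5166), which is above Krt18. The calcium-binding protein S100a4 stood at 2653 TPM and fibronectin (Fn1) at 1746 TPM. Of the factors that drive loss of epithelial traits, Twist1 (190 TPM), Snai1 (77.5 TPM) and Zeb2 (50.8 TPM) were well above Twist2 (6.65 TPM) and Zeb1 (1.44 TPM), and Snai2 had only 3, 4 and 5 counts. Fibroblast products were scarce, with Col1a1 at 1.86 CPM, Dcn at 0.297 CPM, Thy1 at 0.0129 CPM and Lum listed at 0, although the fibroblast receptor Pdgfra was at 93.5 CPM. N-cadherin (Cdh2) was at 0.269 TPM, beside 166 TPM for E-cadherin. In all, 12 of 21 members were at 1 CPM or more, near the background of 61.0%. Vim led this list in 4 of 5 libraries. In bulk RNA it cannot be told apart whether epithelial and mesenchymal markers came from the same cells, and fewer cells of a type cannot be told apart from less RNA per cell.

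Among markers of hormone-sensing mammary cells, the ligand Areg (366 TPM) and the luminal factor Gata3 (236 TPM) were high. The steroid and growth factor receptors used to class breast tumours were lower. Esr1 had 650, 631 and 657 counts, or 10.8 TPM (9.99 to 11.7), so reads of it were found, whereas Pgr (0.983 CPM) was just under 1 CPM. The Esr1 gene spans 394034 bases, of which 13955 are exon, and whole genes were counted. Its intronic and exonic reads therefore cannot be told apart, and scaled by whole gene span its level was 1.03. Erbb2 stood at 38.5 TPM with 894 counts, but Mien1, on the other strand, had 1.18 times as many. Foxa1, a factor that works with the oestrogen receptor, was at 8.19 TPM, and Tbx3 and Tff3 were listed at 0. Milk genes were almost absent: Csn2 was at 0.0259 CPM, Csn1s1, Csn1s2a and Lalba were listed at 0, and Csn3 (23.0 CPM) had 1.05 times as many counts on the other strand in 1700066N21Rik. Of the other alveolar markers, lipocalin Lcn2 (649 TPM), the milk fat globule protein Mfge8 (216 TPM) and xanthine dehydrogenase Xdh (66.3 TPM) were high, and these 3 are also made outside milk secretion. The rest of that list, Ltf (0.737 CPM), Aldh1a3 (0.543 CPM), Kit (0.466 CPM), Elf5 (0.453 CPM), Wap (0.284 CPM) and Btn1a1 (0.0905 CPM), were under 1 CPM. In all, 4 of its 14 members were at 1 CPM or more (28.6%), below the 61.0% of protein-coding genes.

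Markers of other cell types were mostly absent or low. Of 84 entries in 9 lists, 18 were at 1 CPM or more, 4 were at 10 CPM or more and 44 had 3 counts or fewer, beside 24.1% of all protein-coding genes. Lysozyme (Lyz2) and Tyrobp, both defining for macrophages, were listed at 0, while Cd14 (8.79 CPM), Cd68 (7.60 CPM) and Adgre1 (2.20 CPM) were present. No lymphocyte marker passed 1 CPM, the highest being Ncr1 at 0.504 CPM, Cd2 at 0.427 CPM and Cd3e at 0.0646 CPM. Endothelial markers lay at or under 4.47 CPM (Tek), with Esam at 1.29 CPM and Egfl7, overlapped by Agpat2, at 1.68 CPM. Fat cell markers were at or under 0.672 CPM (Cidec, then Lep and Plin1), and liver markers at or under 0.207 CPM (Tat and Cyp3a11, then Serpina1a). Haemoglobin Hba-a2 had 1 count in each column, and the erythroid Alas2 (14.0 CPM) and Klf1 (1.11 CPM) each overlapped a gene with more counts, Apex2 and Gcdh. Of the neural list, Map2 (41.4 CPM), Mbp (39.6 CPM) and Rbfox3 (6.07 CPM) were found, and glial Gfap was listed at 0. Titin (Ttn, 10.2 CPM over a very long gene, 0.523 TPM) was the sole muscle marker at 1 CPM or more, above Myh1 (0.233 CPM) and Acta1 (0.0905 CPM). Of the germ line list, Sycp3 (2.53 CPM, overlapped by Chpt1) and Tex14 (4.68 CPM) passed, and Ddx4 was at 0.466 CPM. The pluripotency genes Pou5f1, Nanog and Zfp42 were listed at 0.

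**Figure D2:**
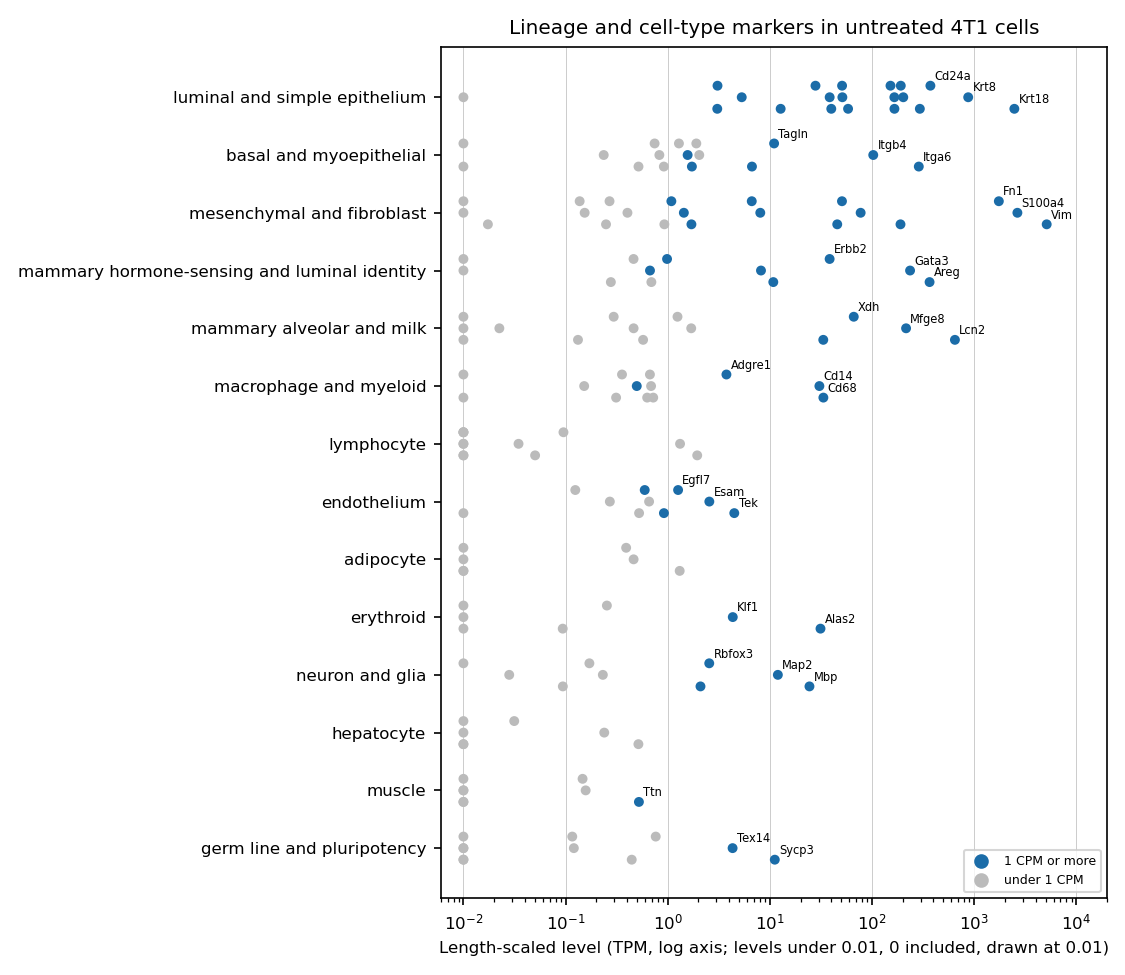
Each point is a marker gene and the horizontal log axis is its length-scaled level in the untreated library in TPM, with levels under 0.01 drawn at 0.01; blue points were at 1 CPM or more, and the 3 highest such members are named. Krt18, Krt8, Vim, S100a4 and Fn1 lie to the right, above every marker of blood, vessel, fat, liver and muscle cells.

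Xist, the RNA that coats the inactive X chromosome, had 9, 10 and 10 counts (0.375 CPM), and Jpx on the other strand had more. The X-linked genes with a Y copy were high, led by Ddx3x (424 TPM), Kdm6a (59.1 TPM) and Kdm5c (37.9 TPM). Their Y copies were not: Ddx3y stood at 0.0388 CPM, and Uty, Kdm5d and Eif2s3y were listed at 0. Of 117 protein-coding Y genes, 112 were at 0.

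Cytokines were led by a few genes at high levels. Of 33 colony-stimulating factors, interleukins and TNF family ligands, 16 were at 1 CPM or more, a share of 48.5%. Tslp, an epithelial cytokine that acts on dendritic cells and on B and T lymphocytes, had 3048, 3047 and 3081 counts and the highest level of the list (537 TPM, 518 to 556). Csf3, which directs the production of neutrophils, had 1794, 1765 and 1762 counts (292.5 TPM, 279 to 306.5). Csf1, the macrophage growth factor, was at 138 TPM, with 1.05 times as many counts in Gm40121 on the other strand. Il1a (97.2 TPM), Csf2 (73.8 TPM, 65.0 to 83.5) and Lif (69.4 TPM, 65.8 to 73.2) followed, and the last 2 could not be separated by counting error. Gm14023, on the other strand, had 1422 counts beside 1452 of Il1a, so reads of these genes cannot be told apart. Inflammatory cytokines often measured in culture supernatants were low: Il6 had 21, 25 and 22 counts (0.879 CPM), Il1b was at 0.543 CPM, and Tnf and Ifnb1 were listed at 0. Ifng was also listed at 0, but 56.2% of its span lies under Gm49751 on the same strand. In the BLA-A library Csf3 was at 849 TPM and Tslp at 932 TPM, and Tslp led the list in all 5 libraries.

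Chemokines, the small proteins that steer leukocytes, were expressed by a handful of genes. Of 31 in the table, 9 were at 1 CPM or more and 17 had 3 counts or fewer, a state shared by 24.1% of protein-coding genes. The neutrophil chemokines Cxcl1 (458 TPM, 443 to 473) and Cxcl5 (325 TPM, 313 to 337) led, followed by the membrane-anchored Cx3cl1 (138 TPM) and Cxcl16 (59.4 TPM). Ccl5 (42.5 TPM) and Ccl2 (20.6 TPM) were the highest of the Ccl group, with 187 and 100 counts on average. Cxcl2, a close relative of Cxcl1, was at 0.297 CPM, Cxcl3 at 0.0129 CPM, and Cxcl12 was listed at 0 in all 3 columns. Cxcl1 led the list in all 5 libraries.

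Growth factors were led by ligands of the epidermal growth factor receptor, Areg (366 TPM) and Hbegf (182 TPM), with Tgfa at 82.3 TPM and Btc at 19.0 TPM. Egf itself (0.698 CPM), Ereg (0.284 CPM) and Epgn (0.272 CPM) were under 1 CPM. The angiogenic factors Vegfa (134 TPM), Vegfb (94.9 TPM) and Vegfc (87.2 TPM) were all found, and Vegfd was at 0.698 CPM. Nrg1 reached 62.2 CPM but had no single GENCODE length. The insulin-like growth factor Igf1 was at 0.414 CPM, while Igfbp4, which binds such factors, was at 1558 TPM. Igf2 was at 0.0388 CPM but lies wholly within Gm49394 on the same strand, so nothing is drawn from its low count. In all, 21 of 37 growth factors were at 1 CPM or more.

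In the TGF-beta superfamily, the latent binding proteins that hold the ligand in the matrix were higher than any ligand: Ltbp1 was at 268 TPM and Ltbp3 at 228.5 TPM, compared with Tgfb1 at 93.5 TPM. Bmp1, a protease of the matrix and no ligand despite its name, came next at 122 TPM. Inhba (50.4 TPM) and Bmp7 (43.0 TPM) were the next ligands whose counts exceeded those of any antisense partner, and Bmp2, Gdf15, Nog and Grem1 were listed at 0. Of 30 members, 15 were at 1 CPM or more.

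Of 39 other secreted and matricellular proteins, 32 were at 1 CPM or more. Galectin-1 (Lgals1) was first at 5469 TPM (5415 to 5523) and osteopontin (Spp1) second at 4268 TPM (4231 to 4305). After Igfbp4 came the protease Ctsl (778 TPM) and its inhibitor Cst3 (725 TPM), then Ccn1 (656 TPM), Lcn2 (649 TPM) and the protease inhibitor Slpi (566 TPM). Plau, the urokinase activator of plasminogen, was at 563 TPM whereas Plat, the tissue-type activator, was at 8.37 TPM. Timp2 (493 TPM) exceeded Timp1 (91.8 TPM, overlapped by Syn1), and Timp3 and Timp4 were under 1 CPM.

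**Figure D3:**
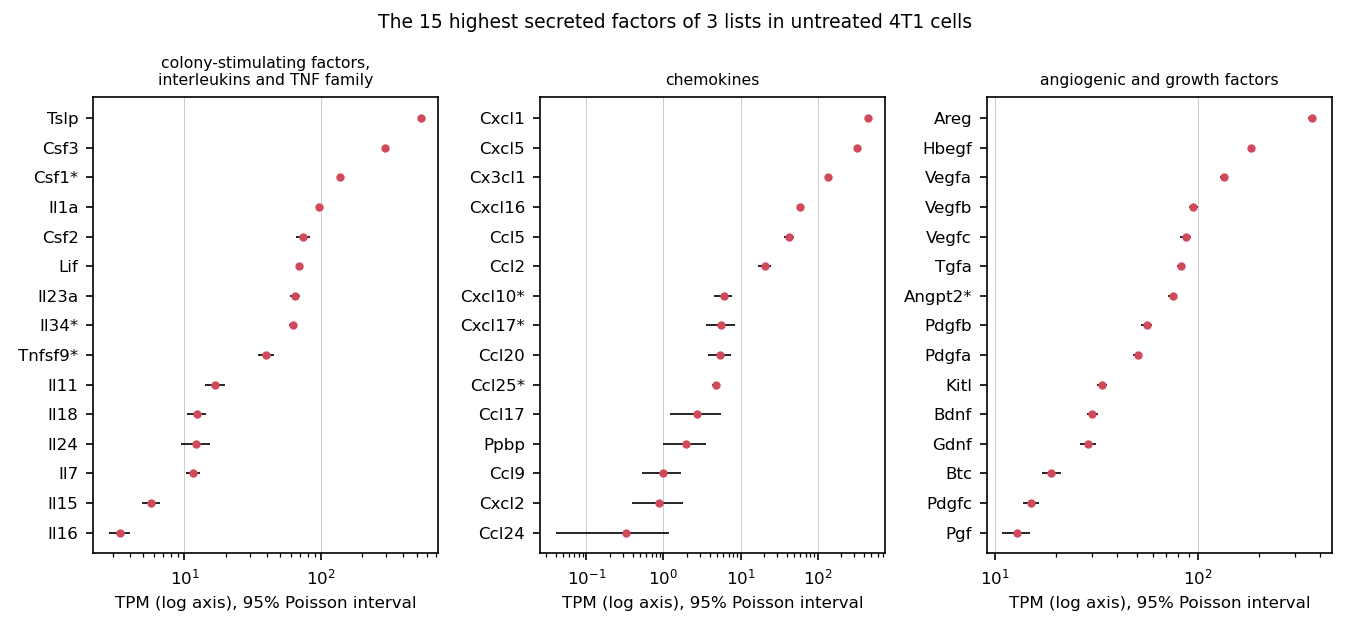
For 3 lists of secreted factors, points give the 15 highest length-scaled levels in the untreated library in TPM on log axes that differ between panels, with 95% Poisson intervals as bars, and an asterisk marks a gene with at least as many counts in a gene on the other strand. Tslp, Cxcl1 and Areg head their panels, and the chemokine panel falls to under 1 TPM within its 15 genes.

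For several of these ligands the receptor was low in the same cells. Csf3r had 3, 5 and 5 counts, Csf2ra 1.67 on average and Csf1r 21.7, each under 1 CPM. Per exon length these receptors were at 0.198, 0.133 and 0.687 TPM, beside 292.5, 73.85 and 138 TPM of Csf3, Csf2 and Csf1. The Tslp receptor chain Crlf2 was at 7.47 TPM, while the ligand was 71.8 times as high per exon length. Cxcr2, the receptor for Cxcl1 and Cxcl5, averaged 3 counts, and Cx3cr1 averaged 12.3. Kit (0.296 TPM) and Kdr (0.525 TPM) were also low beside their ligands Kitl (33.7 TPM) and Vegfa (134 TPM). The other Vegfa receptor, Flt1, was at 78.6 TPM. Pairs with both sides well expressed were Pdgfa and Pdgfra (50.6 and 45.7 TPM), Tgfb1 with Tgfbr1 and Tgfbr2 (93.5, 152.5 and 109 TPM), and Areg and Egfr (366 and 21.1 TPM). Il1a and Il1r1 were at 97.2 and 62.3 TPM, but reads of Il1a cannot be told apart from those of Gm14023 on the other strand. Spp1 (4268 TPM) was 26.7 times as high per exon length as its integrin receptor chain Itgav (160 TPM).

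Receptor tyrosine kinases, the surface enzymes that pass on growth factor signals, were broadly expressed: 44 of 58 were at 1 CPM or more, with a median of 7.42 CPM. Axl, the receptor for Gas6, had 19403, 19534 and 19488 counts and led the list at 495 TPM (488.5 to 502), 1.97 times the next member. It was followed by the ephrin receptor Epha2 (251 TPM, 244 to 258), the collagen receptor Ddr2 (152 TPM) and the hepatocyte growth factor receptor Met (137 TPM). Of the Axl family, Tyro3 was at 24.2 TPM and Mertk at 13.4 TPM. Of the ErbB family, Erbb2 (38.5 TPM) and Egfr (21.1 TPM) exceeded Erbb3 (4.75 TPM) and Erbb4 (2.31 TPM). Fgfr2 was at 132 TPM, with 1.06 times as many counts in Htra1 on the other strand, and Fgfr1 (7.21 TPM) and Fgfr3 (5.42 TPM) were lower. Fgfr4 and Mst1r were listed at 0. Axl was first in each treated library, between 386.5 and 557 TPM, and Epha2 was second in BLA-A and BLU-A but behind Igf1r in BLA (214 against 242.5 TPM) and BLU (217 against 218.5 TPM). Epha5 was at 111 TPM in untreated cells and at 2.33 TPM in the BLA-A library, far from its 68.0 to 96.5 TPM in the other treated libraries. Each value rests on 1 library, and the difference was not tested.

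Integrins, which tie cells to the matrix, were at 1 CPM or more for 22 of 26 members. Itga3 (808 TPM, 797 to 820) and Itgb1 (701 TPM, 691 to 711) led, and together they form a laminin receptor. The order of that pair was separable by counting error in the untreated library, but Itgb1 was ahead in BLA (682 against 663 TPM) and marginally in BLU (701 against 699.8 TPM). Itga6 (287 TPM), Itga2 (188 TPM), Itgav (160 TPM) and Itgb5 (133 TPM) came next. The leukocyte integrins Itgax (0.672 CPM) and Itga4 (0.866 CPM) were under 1 CPM, yet Itgb2, the beta chain of Itgax, was at 27.8 CPM. Itgam was at 0.129 CPM, but 99.9% of it lies under Gm49368 on the same strand and nothing is drawn from its count.

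**Figure D4:**
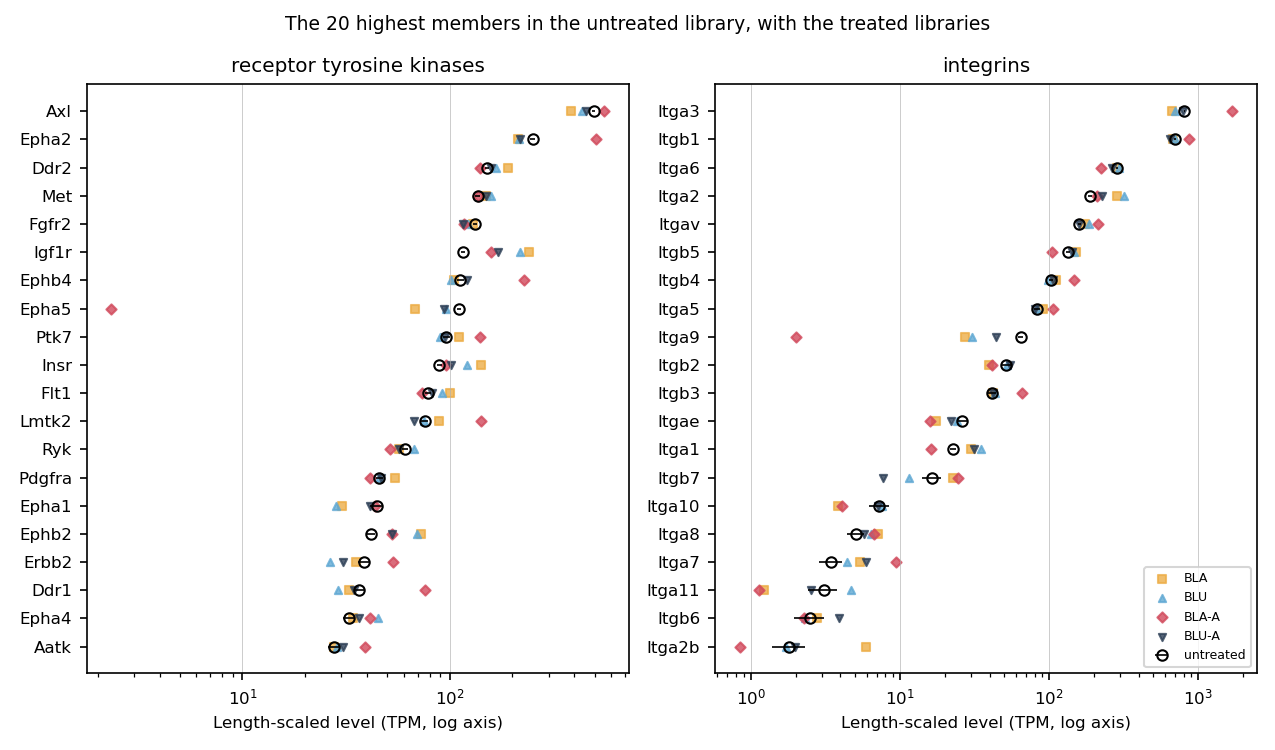
Open circles give the length-scaled level in the untreated library (TPM, log axis, 95% Poisson intervals) of the 20 highest receptor tyrosine kinases and integrins, and coloured symbols give the same genes in the 4 treated libraries, each a single library. Axl is the highest kinase in each library, and Epha5 and Itga9 lie near 2 TPM in the BLA-A library alone.

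Cytokine receptors were present for 33 of 45 members and were led by Tnfrsf12a (284 TPM), the receptor of the ligand Tweak. Ifnar2 (88.6 TPM) and the shared interleukin-6 family chain Il6st (88.4 TPM) could not be separated, and both chains of the interferon-gamma receptor (Ifngr1, 84.4 TPM, and Ifngr2, 67.6 TPM) were present. Of the partners of Il6st, Il6ra (36.8 TPM) and Osmr (12.5 TPM) exceeded Lifr (5.11 TPM). Chemokine receptors were at 1 CPM or more for 4 of 22 members, headed by the scavenging receptor Ackr3 (26.2 TPM), then Cxcr3 (10.5 TPM) and Cxcr6 (5.30 TPM, overlapped by Fyco1). Cxcr4, often linked to spread of breast tumours, had 4, 2 and 3 counts. Among innate sensors (13 of 20), Sting1 (65.2 TPM), Tlr4 (31.2 TPM) and Cgas (29.1 TPM) led, and Tlr7 and Tlr12 had 3 counts or fewer. All but Amhr2 and Acvrl1 of the 14 TGF-beta superfamily receptors were at 1 CPM or more, with Tgfbr1 (152.5 TPM), Bmpr1a (127 TPM) and Tgfbr2 (109 TPM) first. Among lipid and protease receptors coupled to G proteins (13 of 32), the protease receptors F2rl1 (192 TPM, 185 to 200.1) and F2r (185 TPM, 178.5 to 191) were level, and Adrb1 and Adrb3 were listed at 0. Of 48 nuclear receptors, 39 were at 1 CPM or more, with Ppard (82.8 TPM) and Rarg (79.4 TPM) inseparable at the top and the glucocorticoid receptor Nr3c1 at 70.2 TPM. Pparg (2.09 TPM) was far below Ppard.

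Transcription factors differed sharply between families. Hox genes, which record position along the body axis, had the smallest share of members at 1 CPM or more, 5 of 39. A further 29 had 3 counts or fewer, a number that includes genes lying under another gene on the same strand. The 3 highest, Hoxa3 (62.0 TPM), Hoxa2 (31.0 TPM, 27.8 to 34.5) and Hoxa7 (27.4 TPM, 24.5 to 30.5), all belonged to the Hoxa cluster, and Hoxd3 was at 1.22 CPM. Hoxaas3, on the other strand, had 2.44 times as many counts as Hoxa3. Hoxa4, Hoxa5 and Hoxa6, listed at 0, lie wholly under Gm28308 on the same strand in GENCODE, and nothing is drawn from their counts. The same holds for Hoxc8 and Hoxc9, which lie within Hoxc5, for Hoxd4 within Hoxd3, and for Hoxc10, with 85.7% of its span under Hoxc5. All 10 Hoxb genes had under 1 CPM.

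Of the Sox family, Sox9, a factor of progenitor cells, was at 173 TPM (166.5 to 179), 13.8 times Sox12 (12.5 TPM) and above Sox15 (9.41 TPM, overlapped by Mpdu1), and carried 82.9% of the summed level of the list. Sox2 and Sox10, factors of pluripotent and neural crest cells, were at 0 and 0.129 CPM, although Sox2 lies inside Sox2ot. Runx1 (271 TPM), Gata3 (236 TPM) and the Runx partner Cbfb (216 TPM) led the next list, with Tead1, an effector of Yap, at 170 TPM and Tfap2a at 136 TPM. Tfap2c (0.233 CPM) and Gata6 (listed at 0) were not found at that level. Klf6 (282 TPM), Klf13 (147 TPM) and Klf5 (137 TPM) were the highest Klf members. Elk3 (390.5 TPM), Ets1 (210 TPM) and Etv6 (130 TPM) led the Ets factors, while Elf5 (0.453 CPM), the alveolar factor, was nearly absent. Smad3 (448 TPM) was 3.38 times Rela (133 TPM), with Stat6 at 103 TPM, in a list of which only Irf4 was under 1 CPM. Hmga2, an architectural protein of embryonic chromatin, had 28064, 28026 and 28077 counts, or 760 TPM (751 to 769), and was followed by Eya2 (298 TPM) and Hmga1 (208.5 TPM). Foxc1 was at 140 TPM and Foxc2 at 45.5 TPM, and Tbx3, Msx1, Msx2 and Foxa2 were listed at 0.

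Of 33 cell cycle genes, 29 were at 1 CPM or more. Ccnd1, the cyclin that starts the cycle, stood at 1533 TPM (1517 to 1551), 2.86 times Myc (536.5 TPM). E2f8 was at 278 TPM, and Ccnd2 was at 78.4 TPM. Of the inhibitors, Cdkn1b (129 TPM) was higher than Cdkn2c (67.3 TPM), Cdkn2d (35.5 TPM) and Cdkn1a (21.7 TPM). Cdkn2a and Cdkn2b, which encode the inhibitors p16, p19Arf and p15, had 0 counts in each of the 3 untreated columns and in all 15 columns of the table, with the 95% interval of a 0 in the untreated library reaching 0.143 CPM. No other GENCODE gene covers them on the same strand. The adjacent gene Mtap, the methionine salvage enzyme, had 27034, 26924 and 26997 counts, or 1561 TPM (1542 to 1580), and was the highest of the tumour suppressor and oncogene list.

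On GRCm39, Mtap lies on chromosome 4 from 89055359 to 89099319 on the plus strand, and Cdkn2a from 89192708 to 89212890 and Cdkn2b from 89223204 to 89229276 on the minus strand. The edge of Cdkn2a nearer to Mtap thus lies 137 kb after the first base of Mtap. On the other side of Mtap, Gm12602, the nearest of these, had 1185 counts, and farther off Gm49890 had 7000 and Klhl9, 419 kb before Mtap, had 2689. Beyond, the lncRNA gene Gm12610, which spans 240 kb and runs across Cdkn2b on the opposite strand, had 408 counts, and Dmrta1 had 0. The type I interferon genes between Klhl9 and Mtap were at 0 save Ifna4 with 8 counts and Gm13288 with under 1. DNA was not measured in the count table, and whether these genes are present in the genome of the line was not tested.

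**Figure D5:**
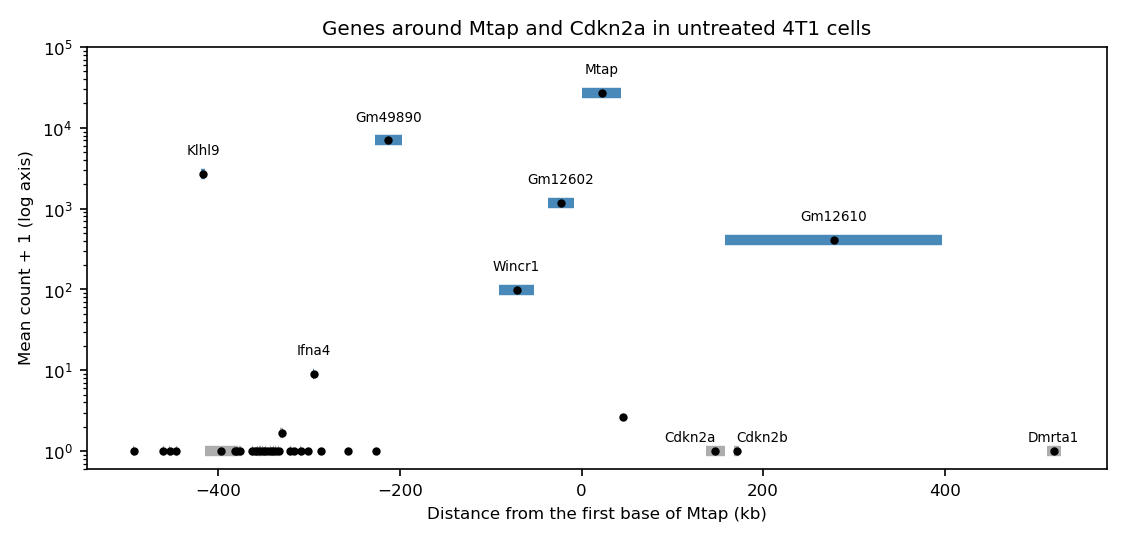
Bars show the extent of each gene in the count table from 500 kb before to 700 kb after the first base of Mtap, and their height gives the mean count plus 1 in the untreated library on a log axis, with a dot at the middle of each gene. Mtap has the highest count (26985), and Cdkn2a and Cdkn2b sit at the bottom with 0.

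Other genes of the tumour list were nearly all found: 30 of 31 were at 1 CPM or more, Trp73 (0.789 CPM) being the exception. Akt1 (154.5 TPM) was above Akt2 (19.5 TPM). Trp53 had 1952, 1950 and 1952 counts, or 61.8 TPM, near Brca1 (65.8 TPM) and Brca2 (57.0 TPM). Nras (122 TPM) was above Hras (16.2 TPM). Tert, the catalytic part of telomerase, was present at 6.07 TPM.

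Among the 10 highest lncRNA genes by CPM were Gm40892 (2277 CPM), Malat1 (1671 CPM), Gm36876 (1425 CPM), Gm30368 (828 CPM), Peak1os (732.5 CPM), Mir100hg (499 CPM), Brip1os (428 CPM), Pvt1 (364 CPM) and Gm51785 (312 CPM). Of those named, Gm30368, Peak1os and Gm51785 overlap a gene with more counts on the other strand. Gm30368 lies against Lgals1, which had 1.86 times its counts, Peak1os against Peak1 (1.89 times) and Gm51785 against Hmga2 (3.49 times). Gm40892, Malat1 and Gm36876 have no such overlap in the table. Of 60 listed noncoding RNAs in the table, 42 were at 1 CPM or more. Of these, 12 overlapped a gene with at least as many counts on the other strand. The share of all lncRNA genes was 21.2%, but the list holds chosen, named RNAs, some of other classes. Nothing is therefore drawn from the difference between these shares. The RNA part of RNase P, Rpph1, led per exon length at 18457 TPM, followed by 7SK (Rn7sk, 1719 TPM) and Bc1 (1540 TPM), and all are short structural or regulatory RNAs for which a small length raises the scaled level. Rpph1 also lies within Ccnb1ip1 on the same strand. Malat1 (1275 TPM) exceeded Neat1 (53.7 TPM), its neighbour and a scaffold of paraspeckles. Pvt1, next to Myc, was at 100.1 TPM and Lncpint at 86.9 TPM. Xist, Meg3 (0.530 CPM), Rian (0.349 CPM) and Mirg (0.414 CPM) were low, and Hotair was listed at 0.

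Mir100hg is the host transcript of 3 microRNA genes, and it is shown with its products because it was the highest microRNA host among the listed noncoding RNAs. It lies on chromosome 9 (GRCm39) and contains Mir100, Mirlet7a-2 and Mir125b-1 on its own strand. Dleu2, at 81.8 CPM, contains Mir15a and Mir16-1, and Mir17hg, at 3.62 CPM, contains the cluster of Mir17 and Mir20a. For Mirlet7a-2 only the 3p sequence was at hand, so its 5p product is not shown. Mature sequences from RefSeq (GRCm38.p6) are given 5′ to 3′ with the seed, bases 2 to 8, in capitals.
mmu-miR-100-5p: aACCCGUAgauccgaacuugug
mmu-miR-99a-5p: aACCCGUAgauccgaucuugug
mmu-miR-125b-5p: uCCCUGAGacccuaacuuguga
mmu-let-7a-2-3p: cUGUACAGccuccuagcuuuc
mmu-miR-15a-5p: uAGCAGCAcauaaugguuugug
mmu-miR-16-5p: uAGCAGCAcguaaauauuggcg
mmu-miR-17-5p: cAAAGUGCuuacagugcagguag
mmu-miR-20a-5p: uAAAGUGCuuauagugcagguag
The seed of miR-100 is that of miR-99a, whose host Mir99ahg stood at only 1.88 CPM and which lies beside a second miR-125b gene. The members of the pairs miR-15a and miR-16, and miR-17 and miR-20a, share a seed within each pair. A host transcript level does not give the level of a mature microRNA, which was not measured: of 41 hairpin genes inside 13 listed hosts, 39 were at 0 in the untreated library. Among the other listed noncoding hosts, H19, the host of miR-675, was at 5.69 CPM. Mir22hg was at 5.07 CPM, with 96.6% of its span under Tlcd2 on the same strand. Mir155hg was at 1.25 CPM, with 31.5 times its counts in Mrpl39 on the other strand. Of the Mir155hg span, 55.9% lies under Gm60965 on the same strand. Outside the list, Gm49890, near Mtap, contains Mir31 on its own strand and stood at 271.5 CPM.

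Imprinted genes, of which 1 parental copy is normally silent, were at 1 CPM or more for 11 of 25 members. Gnas (369 TPM) and Igf2r (286 TPM), the receptor that clears Igf2, led. Airn, the antisense RNA at Igf2r, was at 217 CPM, but Igf2r had 2.05 times its counts on the other strand. Igf2, Peg3, Peg10, Dlk1, Peg12, Ndn and Magel2 had 3 counts or fewer.

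Within structural families 1 member was often far above the rest. Cytoplasmic beta-actin (Actb, 10889 TPM) was 46.7 times gamma-actin (Actg1, 233 TPM), and the muscle actins, with Actg2 the highest, were under 1 CPM. Tubb5 (1656 TPM) was 3.58 times Tubb4b (462 TPM), Tuba1a followed at 412 TPM with 1.93 times its counts in Gm41396 on the other strand, and neuronal Tubb3 was at 0.155 CPM. Nonmuscle myosin Myh9 (351 TPM) was 1.88 times Myh10 (187 TPM), and the other 12 heavy chains were at or under 6.74 CPM (Myh7b, overlapped by Trpc4ap). Annexins were found more evenly, with 10 of 12 at 1 CPM or more and Anxa2 (580 TPM), Anxa1 (474 TPM) and Anxa5 (320 TPM) in front. Cd9 (1143 TPM) was 5.05 times the next tetraspanin, Tspan31, which overlaps Cdk4, and Cd81 was at 174 TPM. Per kb of whole gene span, however, Tspan31 led the tetraspanins. Among claudins (8 of 25), Cldn3 (294 TPM) was 5.04 times Cldn4 (58.3 TPM), Cldn7 (51.3 TPM) had 1.73 times its counts in Elp5, and the endothelial Cldn5 was listed at 0. Gja1 (129 TPM) was 2.61 times Gjc1 (49.5 TPM) among connexins, of which 4 of 20 were at 1 CPM or more. Lgals1 carried 93.5% of the summed galectin level, above Lgals3 (216 TPM) and Lgals2 (76.9 TPM, overlapped by Cdc42ep1). Ctsl (778 TPM) was 2.09 times Ctsb (372 TPM), Ctsd was at 355 TPM, and Ctsg, of neutrophils, was listed at 0. Rac1 (405 TPM), Cdc42 (159 TPM) and Rhob (146 TPM) led the Ras-like small GTPases, of which 20 of 23 were at 1 CPM or more, and Rac2, of blood cells, was at 0.595 CPM.

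Isoenzymes of sugar use followed the same form. Pkm (714 TPM) led, and its liver form Pklr was listed at 0. Ldha (590 TPM) was far above Ldhb (2.27 TPM), and Eno1 (469 TPM) above Eno3 (180 TPM) and Eno2 (9.54 TPM). Hk2 (80.3 TPM) and Hk1 (76.6 TPM) overlapped in their intervals, so the order of these hexokinases cannot be given. The lactate carrier Slc16a1 (173 TPM) and the glucose carrier Slc2a1 (121 TPM) led their list, with Slc2a9 at 38.9 TPM, and Slc16a3 was at 2.00 CPM and overlapped by Csnk1d. Slc16a1 led in 2 of 5 libraries. Among aldehyde dehydrogenases, Aldh3a2 (108 TPM) and Aldh3a1 (74.2 TPM) exceeded Aldh3b1 (8.01 TPM) and were far above the members used to mark stem-like mammary cells, Aldh1a1 (0.491 CPM) and Aldh1a3 (0.543 CPM).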

How the data were processed

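RNA was extracted from cultured 4T1 cells, and libraries were sequenced and counted by the authors. The deposited table holds counts of reads per gene, without normalization, for 40402 genes and 15 columns. The authors aligned to GRCm39 and counted by strand on whole genes, introns included. Per the study's run report, merged read files were aligned as single-end reads and counted in union mode, in which a read that falls on 2 genes of the same strand is given to neither. The other deposited tables hold the authors' fold changes with p-values and gene set enrichment scores, and were not used. The members and lists described here were chosen with earlier results of these data known.

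Columns were assigned to samples by their names, and the 3 untreated columns were averaged as 1 library. Counts were divided by their total (CPM) or by merged exon length from GENCODE M39 and rescaled (TPM). Since whole genes were counted, intronic reads raise the TPM of long genes. Exact Poisson intervals were at the 95% level, with a floor of 3 counts. Because there was 1 library per condition, no test was made. The code for the order of levels and the intervals was run on Poisson counts simulated from the observed levels. That run covers counting error only, and not intronic reads, reads shared between genes or differences between cultures. Overlaps between genes were taken from GENCODE. By the rule for named genes, the 3 highest members of each list per exon length, the 20 highest genes and the 10 highest lncRNA genes were named, any other member could be named with its level, and opposite-strand partners were named where they had more counts. Opposite-strand partners were given only for genes in the count table. Same-strand genes were taken from GENCODE whether or not they are in the count table. Some genes that the rule names, and results that rest on them, are not reported here. Python 3.11.15, numpy, pandas, R and edgeR (TMM factors for 1 alternative) were used. Alternatives were other totals and thresholds, other length scales, leaving out each column, and leaving out genes with a gene on the other strand.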

Additional observations from a re-analysis of the deposited data

How the results depend on the processing

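Leaving out genes that overlap a gene on the other strand lowered the number at 1 CPM or more from 15634 to 7543. Without the most abundant gene, Gm26917, the top 10, 100 and 1000 genes took 5.44%, 16.85% and 46.8% of counts, instead of 10.8%, 21.7% and 49.9%. The number of genes at 1 CPM or more was 15871 with totals that leave out Gm26917, 15479 with TMM library sizes, 18330 at 0.5 CPM and 23392 at more than 3 counts, and 15639 to 15659 when each column was left out. The number of members at 1 CPM or more moved by over 1.5 times in 4 of 52 lists at 0.5 CPM and in 22 at more than 3 counts, and in 0 of 52 lists under the other totals or without a column. The leading member was another gene in 14 of 52 lists per kb of whole gene span, and in 15 by CPM with no length. These include Csf3 or Csf1 in place of Tslp, Hbegf in place of Areg, and Foxc1 in place of Hmga2 per kb of span. No paired analysis was possible because each condition has 1 library and no test was made. Fewer than 3 counts cannot separate low expression from none, and no culture-to-culture error can be given.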

Other observations

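Large families of tissue-restricted genes were almost silent in untreated 4T1 cells. Of 1103 olfactory receptor genes, 965 were at 0 and 4 were at 1 CPM or more, the highest being Or2h1 at 3.80 CPM. Of 353 vomeronasal receptor genes, 263 were at 0 and 10 reached 1 CPM, led by Vmn2r13 at 13.5 CPM. Bitter taste receptors (35 genes), keratin-associated proteins (56), beta-defensins (42), major urinary proteins (22) and the Prl family (25) had no member at 1 CPM. Zinc finger genes with a Zfp symbol formed the other extreme, with 335 of 420 at 1 CPM or more, and each of 77 ribosomal protein genes was at 1 CPM or more. Of 81 cytochrome P450 genes of families Cyp1 to Cyp4, 12 were at that level, with Cyp1b1 highest at 49.7 CPM. Predicted genes with a Gm symbol took 9.25% of counts, 59381 CPM of it in Gm26917.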
